A study of Mus musculus with 4 samples.

Results

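Of 26732 regions of accessible chromatin in the 10 min list, 3262 overlapped no region of either other peak list of the series, and these 10 min-only regions are described here. They made up 12.2% of the 10 min list (95% interval 11.8 to 12.6%). Each list was first cleared of intervals under 150 bp, and neighbours with a gap under 1000 bp were joined into 1 region. A 10 min region was then selected on the absence of peak calls in the other lists, that is, when it shared no base with the 19648 vehicle and the 38532 TGFβ regions from complete medium. The choice rests on where peaks were called, so the presence of the regions at 10 min and their absence elsewhere are the rule itself and not a finding. Their width and score bear on whether a peak is called and are given as descriptions. Their position, neighbouring genes and sequence were not used to choose them.

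Accessibility was measured by ATAC-seq, in which the Tn5 transposase inserts adapters into DNA that is free of nucleosomes, in NMuMG cells, an established epithelial line from normal mouse mammary gland with no engineered allele named in the labels. The 10 min experiment held a vehicle and a TGFβ sample, in which cells spent 6 h without serum and insulin before vehicle alone or TGFβ1 at 5 ng per ml was added for 10 min. The other experiment held a vehicle and a TGFβ sample in complete medium, treated for 2 h with vehicle or with TGFβ1 at 5 ng per ml. The vehicle was HCl with BSA by the protocol, whereas a characteristics field names Tris-HCl with BSA. Both 10 min samples name the same single peak list, so vehicle and TGFβ cannot be told apart at 10 min, and which libraries the list was called from was not settled. For the 10 min TGFβ sample a characteristics field gives 2 h while title and protocol give 10 min, which was used. The 10 min list and the lists from complete medium differ at once in time, medium and library, and these cannot be told apart. With 1 list for both 10 min samples and 1 for each sample from complete medium, there were no replicate lists and no test between conditions was possible. All intervals are 95% Wilson intervals for shares, Newcombe intervals for differences of shares, or order-statistic intervals for medians, and they cover the counting of regions only.

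The cell type was checked against marker genes. Of 10 epithelial markers, 4 had a 10 min region at a transcription start site (TSS), namely the keratin genes Krt8, Krt18 and Krt19 and the E-cadherin gene Cdh1, whereas Epcam, Krt7, Cldn3, Cldn4, Cldn7 and Esrp1 had none. Of 7 fibroblast markers only Col1a1 had such a region, and none of the 6 immune, 5 endothelial and 4 neuronal markers did. A missing peak does not show that a gene is silent.

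Distal accessible regions in epithelial cells hold binding sites for several classes of factor. AP-1, a dimer of Fos and Jun proteins, binds enhancers that respond to growth factors and stress, and SMAD proteins carry the TGFβ signal from the receptor to DNA. ETS factors bind many promoters and enhancers downstream of MAP kinases. CTCF is a zinc finger protein that binds insulators and the anchors of chromatin loops together with cohesin, often far from promoters and at sites that are open in many cell types.

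The distal 10 min-only regions differed from the other distal 10 min regions in their shares of CTCF, AP-1 and SMAD matches. For ETS the interval of the difference held 0. Sites of each factor are shown for high-scoring distal examples. Distal means farther than 1000 bp from every annotated TSS. Each sequence is the plus strand of the mouse genome build mm9 (NCBIM37), 5′ to 3′, with the match to the consensus in capitals and 40 bases on either side. The CTCF examples lay in an intron of Ablim1, which encodes an actin-binding LIM protein, and in intergenic DNA beside Efna3, which encodes a membrane-bound ephrin ligand. Their regions were chr19:57140916-57141088, with a score of 932, and chr3:89112118-89112309, with a score of 867. The match stands on the plus strand in the former and on the minus strand in the latter.
CTCF in Ablim1, chr19:57140953-57141044: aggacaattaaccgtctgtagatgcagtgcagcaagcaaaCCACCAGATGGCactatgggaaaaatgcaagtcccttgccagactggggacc
CTCF beside Efna3, chr3:89112153-89112244: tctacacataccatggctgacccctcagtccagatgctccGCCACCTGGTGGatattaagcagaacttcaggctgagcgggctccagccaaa

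AP-1 was searched as TGACTCA on both strands. The example lay in an intron of Il28ra, an interferon lambda receptor gene, in chr4:135248850-135249151 with a score of 905. It is shown because this match was less frequent in the 10 min-only regions than in the rest of the list.
AP-1 in Il28ra, chr4:135248954-135249040: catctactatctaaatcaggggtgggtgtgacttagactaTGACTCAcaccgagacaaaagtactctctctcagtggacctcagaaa

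SMAD was searched as CAGACA or GTCTAGAC and ETS as CCGGAAGT, on both strands, and these examples show the sites of the remaining factors. The SMAD region was the intergenic chr17:35721318-35721753, nearest to Sfta2, with a score of 919.
SMAD beside Sfta2, chr17:35721517-35721602: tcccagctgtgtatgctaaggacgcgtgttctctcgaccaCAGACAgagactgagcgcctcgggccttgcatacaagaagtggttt
The ETS regions were chr8:108359299-108359542 in an intron of Tsnaxip1, with a score of 773, and chr12:81216654-81216983, 2654 bp from the TSS of Zfp36l1, which encodes an mRNA decay factor, with a score of 651.
ETS in Tsnaxip1, chr8:108359376-108359463: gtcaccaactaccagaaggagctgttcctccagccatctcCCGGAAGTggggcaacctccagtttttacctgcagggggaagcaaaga
ETS beside Zfp36l1, chr12:81216753-81216840: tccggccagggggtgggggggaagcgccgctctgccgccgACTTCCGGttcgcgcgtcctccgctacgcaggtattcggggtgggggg

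The 10 min-only regions were narrow and low in score beside the other 10 min regions. Their median width was 269.5 bp (quartiles 195 and 402 bp, longest 1637 bp), compared with 676 bp for the 16651 10 min regions found in both other lists and 393 bp for the 6323 shared with the TGFβ list alone. The score is the authors' scaled irreproducible discovery rate, which rises with the agreement of ranks between replicates and ends at a cap of 1000. What served as replicates was not settled. Its median was 615 in the 10 min-only regions, 973 in regions of all 3 lists and 678 in those shared with the TGFβ list alone. Only 11 of the 10 min-only regions reached the cap (0.337%, 0.188 to 0.603%), against 46.5% of the regions in all 3 lists. A single summit was found in 1709 of them (52.4%), against 12.7% of the regions in all 3 lists. Narrow regions with a single summit were not particular to the 10 min list. The 705 regions of the vehicle list only had a median width of 230 bp, a median score of 612 and a single summit in 67.5%. For the 13819 regions of the TGFβ list only these values were 267 bp, 703 and 65.0%. In all, the 10 min-only regions covered 1.051 Mb of the 16.42 Mb of the 10 min list.

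The share of 10 min regions absent from the other lists fell with width and with score. It was 54.5% among regions of 150 to 199 bp (915 of 1680), 26.5% at 200 to 299 bp, 19.4% at 300 to 399 bp, 9.15% at 400 to 599 bp and 1.75% from 600 bp on (204 of 11651). By score it was 40.1% from 540 to 574, 10.5% from 700 to 799 and 0.138% at the cap. The 10 min-only regions were thus most of the narrowest bin and few of the widest.

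**Figure D1:**
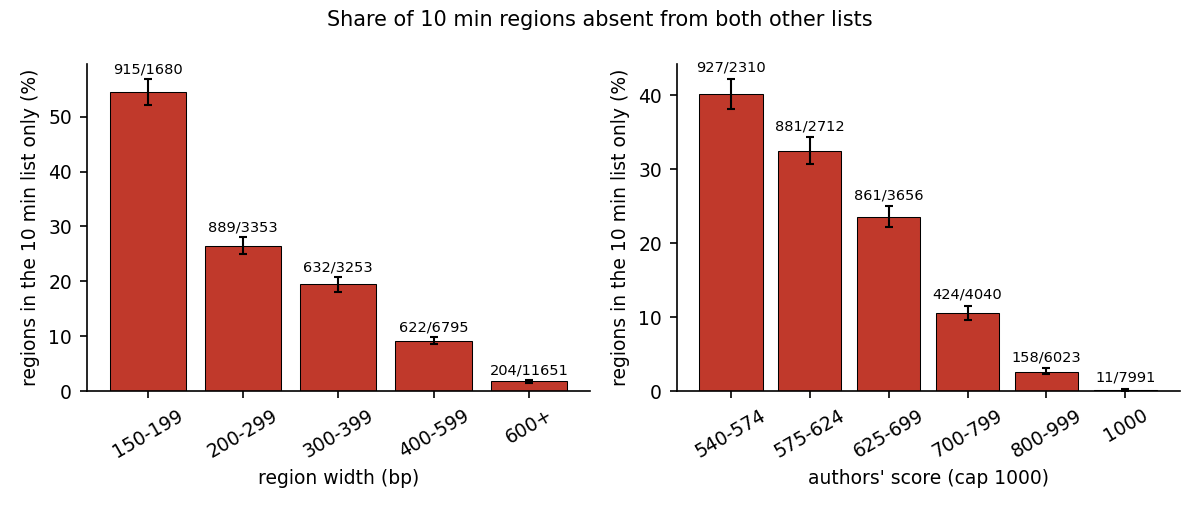
Percentage of 10 min regions found in no other list (y axis), by region width in bp (left) and by the authors' score (right). Bars are shares with 95% Wilson intervals, and the fractions give 10 min-only regions over all 10 min regions of the bin. The share drops from 54.5% at 150 to 199 bp to 1.75% from 600 bp on, and from 40.1% at the lowest scores to 0.138% at the cap.

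Some regions were close to being shared. A deposited interval under 150 bp of the vehicle or TGFβ list lay over 272 of the 3262 regions (8.34%, 7.44 to 9.34%). It came from the TGFβ list in 238 and from the vehicle list in 40, and 6 had both. The nearest region of either list was under 1000 bp away for 152 regions (4.66%) and under 10000 bp away for 1633 (50.1%), with a median gap of 9983 bp (9448 to 10494 bp). For 2548 regions (78.1%) the nearer neighbour was a TGFβ region, in a list that holds more regions than the vehicle list.

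The regions just inside the rule were chr14:76229350-76229668 near Tpt1, 7 bp from a TGFβ region, chr3:94587187-94587899 in an intron of Cgn, which encodes the tight junction protein cingulin, at 17 bp, and chr9:66088757-66089114 in an intron of the death-associated kinase gene Dapk2, at 24 bp. Just outside it were chr6:39218764-39219288, which overlapped a TGFβ region by 15 bp, chr15:70775475-70775983, by 58 bp, and chr10:76993803-76994140 at the TSS of the integrin gene Itgb2, by 78 bp. Of the 23470 excluded 10 min regions, 1 overlapped another list by 50 bp or less.

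Most of the 10 min-only regions lay away from promoters. Within 1000 bp of a TSS were 461 regions, or 14.1% (13.0 to 15.4%), compared with 19.97% of the 10 min regions shared with the TGFβ list alone and 50.7% of those in all 3 lists. The difference from the regions in all 3 lists was −36.5 points (−37.9 to −35.1), and that from the regions shared with the TGFβ list alone was −5.84 points (−7.37 to −4.27). A low share at a TSS was not particular to the 10 min-only regions. Of the regions of the vehicle list only, 90 of 705 lay at a TSS, and of those of the TGFβ list only 1071 of 13819. Among all 10273 10 min regions at a TSS, 4.49% were 10 min-only, and among the 16459 distal regions 17.0% were. The remainder of the 10 min-only regions comprised 1459 intergenic (44.7%), 1159 intronic (35.5%), 99 at a coding exon (3.04%), 60 at a UTR (1.84%) and 24 at a non-coding exon (0.736%). The share of 10 min regions that was 10 min-only was 16.7% (15.8 to 17.6%) in introns and 17.1% (16.3 to 17.9%) between genes, with overlapping intervals. At UTRs away from a TSS it was 25.4% (20.3 to 31.3%), or 60 of 236.

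The distal regions were nonetheless nearer to a TSS than those of all 3 lists. Their median distance was 13730 bp (12828 to 14620 bp), compared with 18629 bp (17987 to 19236 bp) for distal regions in all 3 lists and 15926 bp (15108 to 16733 bp) for those shared with the TGFβ list alone. Beyond 50000 bp lay 15.7% of them (14.4 to 17.1%), compared with 22.2% and 19.4%.

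**Figure D2:**
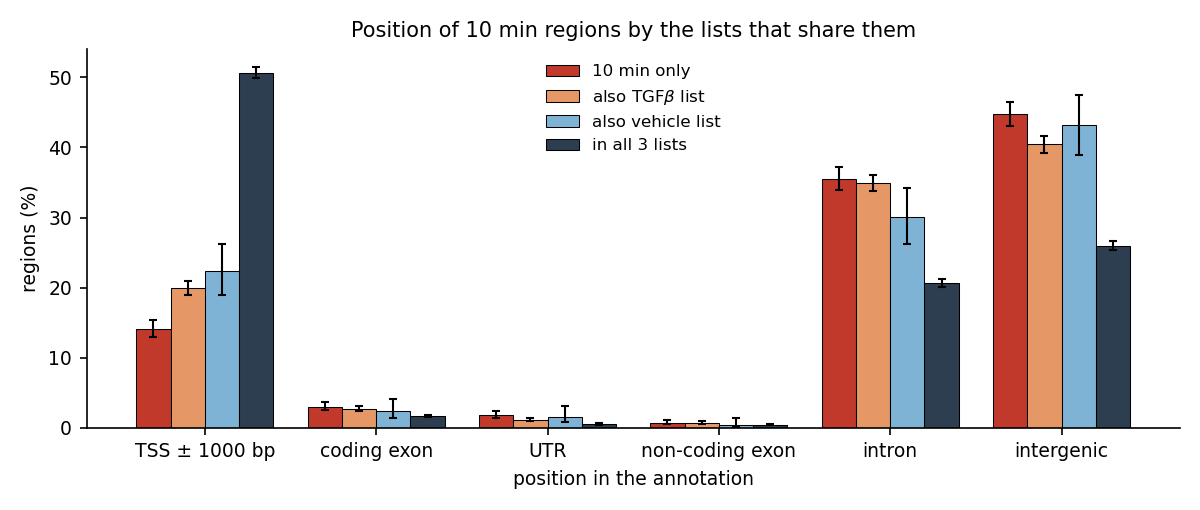
Percentage of 10 min regions (y axis) in each class of the annotation (x axis), for the 3262 regions in the 10 min list only, those also in the TGFβ list, those also in the vehicle list and those in all 3 lists. Error bars are 95% Wilson intervals. At a TSS the 10 min-only share of 14.1% is the lowest of the 4 sets, and regions in all 3 lists reach 50.7%.

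Of the 11 regions at the score cap, 5 lay at a TSS, each of a protein-coding gene. This was 45.5% (21.3 to 72.0%), compared with 68.4% of the 7980 other 10 min regions at the cap, a difference of −22.9 points with an interval that held 0 (−47.2 to 3.62). The 5 regions were chr4:44313560-44314274 at Melk, which encodes a cell cycle kinase, chr10:126959043-126959638 at Shmt2, the mitochondrial serine hydroxymethyltransferase of one-carbon metabolism, chr8:113521459-113521847 at Ddx19a, an RNA helicase of mRNA export, chr7:20006513-20007099 at A930016O22Rik and chr2:167836545-167836723 at Fam65c. None of these genes had a vehicle or TGFβ region at any TSS, which follows in part from the rule. The nearest TGFβ region was 18566 bp from the Melk region, 8837 bp from that of Shmt2 and 29471 bp from that of Ddx19a. At Fam65c both a vehicle and a TGFβ interval under 150 bp overlapped the region, which was itself 179 bp wide.

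The other 6 regions at the cap were distal. The widest of the 11, at 821 bp and with 5 summits, was the intergenic chr8:97498164-97498984, 9519 bp from the TSS of the adhesion receptor gene Gpr56. Introns held chr9:65256513-65257154 in Rasl12, a Ras-like gene, chr3:103946232-103946860 in Magi3, a scaffold gene of cell junctions, and chr9:77337991-77338352 in Lrrc1. The remaining regions were chr2:117268527-117269047, whose nearest coding gene was the Ras exchange factor gene Rasgrp1 at 99790 bp, and chr15:41108485-41108644, 160 bp wide, 170384 bp from Oxr1 and overlapped by both a vehicle and a TGFβ interval under 150 bp. None of these 6 distal regions held an AP-1 or a CTCF match.

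The 5 widest regions scored from 600 to 811, below the cap and beside a median of 615 for all 10 min-only regions. At 1637 bp the widest, chr12:31758710-31760346, lay at the TSS of Fam110c with a score of 641, and the central 50 bases occurred 2 times in the genome. Next came chr9:50531410-50533018 in an intron of Dixdc1, a Wnt pathway gene, at 1609 bp with a score of 649, and chr9:48547210-48548730 in an intron of Zbtb16, a transcription factor gene, at 1521 bp with a score of 811. The others were chr1:135132496-135134005 beside Plekha6 at 1510 bp with a score of 600, and chr6:129162597-129164068, whose nearest coding gene was the lectin gene Clec2d, at 1472 bp with a score of 794.

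For the 3 promoters at the cap whose upstream bases lay inside the region and outside any annotated UTR, the 120 bases before the outermost TSS in the region are shown in the direction of transcription, with motif matches in capitals. The Shmt2 promoter, on the minus strand, held NRF1 matches (GCGCATGC on either strand, here overlapping), which occurred in 2.03% of the same window of 22350 protein-coding genes. The Ddx19a promoter, also on the minus strand, held a cyclic AMP response element (TGACGTCA), present in 1.58% of these windows. The Melk promoter, on the plus strand, held none of the 16 motifs. The windows had 4, 13 and 7 CpG dinucleotides, in the order Shmt2, Ddx19a and Melk.
Melk, chr4:44313628-44313747: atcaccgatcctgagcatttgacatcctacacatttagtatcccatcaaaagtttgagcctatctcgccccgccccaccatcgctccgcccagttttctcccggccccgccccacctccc
Shmt2, chr10:126959492-126959611: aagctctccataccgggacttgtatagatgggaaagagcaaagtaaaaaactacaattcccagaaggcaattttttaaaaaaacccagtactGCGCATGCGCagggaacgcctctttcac
Ddx19a, chr8:113521701-113521820: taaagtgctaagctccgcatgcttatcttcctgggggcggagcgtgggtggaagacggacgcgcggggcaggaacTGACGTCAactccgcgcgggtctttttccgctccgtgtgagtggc

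Counted by gene, 428 protein-coding genes had a 10 min-only region at a TSS, of 10339 with any 10 min region there. For 324 of the 428 it was the sole 10 min region at a TSS of the gene. For 281 (65.7%) no TSS of the gene had a vehicle or TGFβ region, while 96 also had a vehicle region and 143 a TGFβ region at a TSS. The rule excludes regions that overlap the other lists, so this absence follows in large part from the choice. The same share over all 10339 genes is not given. The following were singled out after their values were seen. The highest score below the cap was 997, at Ppil1, a spliceosomal isomerase gene, followed by 996 at Atg7, which encodes an activating enzyme of autophagy. A TGFβ interval under 150 bp overlapped both regions. Scores of 983 at Tsc22d1, 933 at Arhgdia, 896 at the interferon factor gene Irf7 and 854 at Cd109, which encodes a TGFβ co-receptor, had no such interval of the TGFβ list. The Tsc22d1 region lay 709 bp from a TSS and 1035 bp from a TGFβ region. Tsc22d1 was not among the genes without a vehicle or TGFβ region at any TSS. The Arhgdia region was 1171 bp from a TGFβ region. The Dnajc15 promoter, with a score of 889, was the most isolated of those singled out, with the nearest TGFβ region 508041 bp and the nearest vehicle region 661312 bp away.

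The E-cadherin promoter was 10 min-only. Cdh1, whose product holds epithelial cells together and is lost in the epithelial to mesenchymal transition, had the region chr8:109127054-109127440 over its TSS, with a width of 387 bp and a score of 832. The vehicle list had its nearest region 11230 bp away and the TGFβ list 4719 bp away. No TSS of Cdh1 had a region in either, which follows in part from the rule. The window around its centre held a SMAD and an NF-Y match (CCAATCA). Of the other genes of the pathway lists, only Tagln and Elf5 had a 10 min-only region at a TSS. Tagln, a contractile gene of smooth muscle, had chr9:45745084-45745300 with a score of 599, 943 bp from a TSS, and Elf5, an ETS factor gene of the mammary epithelium, had chr2:103286030-103286202 with a score of 589, 834 bp from a TSS and with a CTCF match.

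Across 12 pathway lists of 171 genes, 44 of the 385 10 min regions nearest to a listed gene were 10 min-only, or 11.4% (8.62 to 14.99%), beside 12.1% of all 10 min regions within 100 kb of a TSS. These 44 regions belonged to 36 genes, 3 lay at a TSS, and their scores ran from 540 to 832. The TGFβ feedback genes had 4 of 32 (12.5%), in introns of Pmepa1 and beside Smad7 and Smurf1, which restrain receptor signalling. TGFβ ligand, receptor and Smad genes had 4 of 48 (8.33%), in introns of the receptor genes Tgfbr1 and Acvr1b and of the transducer gene Smad3, and 73860 bp from the TSS of Smad5. AP-1 family genes had 2 of 29 (6.90%), beside Fos and Junb. The ETS family had 7 of 50 (14.0%), assigned to Ets1, Elf5, Ehf, Elf2 and Erg.

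Genes of insulin and FOXO signalling had the largest share among these lists, 9 of 46 (19.6%, 10.7 to 33.2%), and autophagy and lysosome genes the smallest, 0 of 25 (0 to 13.3%). The former interval holds the share over all assigned regions. Its regions belonged to Bcl6, Cdkn1b, which encodes the cell cycle inhibitor p27, the sestrin genes Sesn1 and Sesn3, and Ccng2. Between these came EMT transcription factor genes with 2 of 13 (Prrx1 and Tcf4), immediate-early and MAPK feedback genes with 5 of 50 (Dusp4, Dusp6, Ier3 and Myc), sterol synthesis genes with 3 of 22 (Sqle, Lss and Srebf2), and junction genes with 4 of 36 (Cdh1, Ctnnb1, Tjp1 and Cldn3). Contractile genes had 2 of 18 (Acta2 and Tagln) and mammary transcription factor genes 2 of 16 (Grhl2 and Trp63). No list had an interval that excluded 12.1%. Among marker genes, 10 min-only regions numbered 3 of 23 for epithelial genes (Cdh1, Cldn3 and Krt19), 1 of 4 for fibroblast (Pdgfra), 1 of 2 for immune (Cd3e), 1 of 3 for endothelial (Cdh5) and 0 of 8 for neuronal genes.

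A few genes collected several of the regions. With the nearest protein-coding gene within 100 kb, 2229 genes had 1 region, 282 had 2 and 42 had more, up to 5 at Ablim1. The genes with the most regions are named, so high shares at them follow in part from that choice. Of all 10 min regions 12.2% were 10 min-only. At Efna3 every one of the 4 assigned 10 min regions was 10 min-only. They lay between chr3:89112118-89112309, the CTCF example above, and chr3:89126784-89127013 at the Efna3 TSS, with scores of 867, 545, 613 and 577. No vehicle region lay within 26829 bp and no TGFβ region within 16381 bp of any of them. The neighbouring ephrin gene Efna4 had a further region at its TSS, chr3:89141628-89142143, with a score of 891 and 1251 bp from a TGFβ region.

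At Ablim1, 5 of 17 regions were 10 min-only, with scores from 542 to the 932 of the CTCF example. Cdkal1, a tRNA-modifying enzyme gene, had 4 of 7, among them chr13:29947451-29947644 over its TSS with a score of 692. Trim2, a ubiquitin ligase gene, had 4 of 11 and Arhgap26 had 4 of 16. The regions of these 5 genes were 170 to 483 bp wide.

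CTCF sites were more frequent in the 10 min-only regions than in all other 10 min regions combined, whereas the interval of the difference from those shared with the vehicle list alone held 0. Within 200 bp of the centre, 438 of the 2801 distal regions held a CTCF consensus match, or 15.6% (14.3 to 17.0%). The share was 7.93% (7.21 to 8.70%) in distal 10 min regions shared with the TGFβ list alone and 2.72% (2.39 to 3.09%) in those of all 3 lists. The difference from all other distal 10 min regions was 10.7 points (9.33 to 12.1). Over all windows of the same length in the genome the share was 0.193%, and 0.299% when these windows were weighted to the GC content of the 10 min-only regions. Read the other way, 39.3% (36.5 to 42.2%) of the 1115 distal 10 min regions with a CTCF match were 10 min-only, against 15.4% (14.8 to 15.98%) of those without, beside 17.0% of all distal regions.

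Regions found in the other lists alone had fewer such sites. CTCF matches were present in 9.11% (7.08 to 11.6%) of the 615 distal regions of the vehicle list only and in 3.54% (3.23 to 3.87%) of the 12748 of the TGFβ list only. The 385 distal 10 min regions shared with the vehicle list alone, at 13.8% (10.7 to 17.6%), could not be told apart from the 10 min-only share, with a difference of 1.87 points (−2.15 to 5.26). At a TSS, 6.73% (4.78 to 9.39%) of the 461 10 min-only regions held a match, against 0.948% (0.763 to 1.18%) of the TSS regions in all 3 lists and 7.21% of those shared with the vehicle list alone, a difference from the latter of −0.483 points (−7.15 to 3.92).

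**Figure D3:**
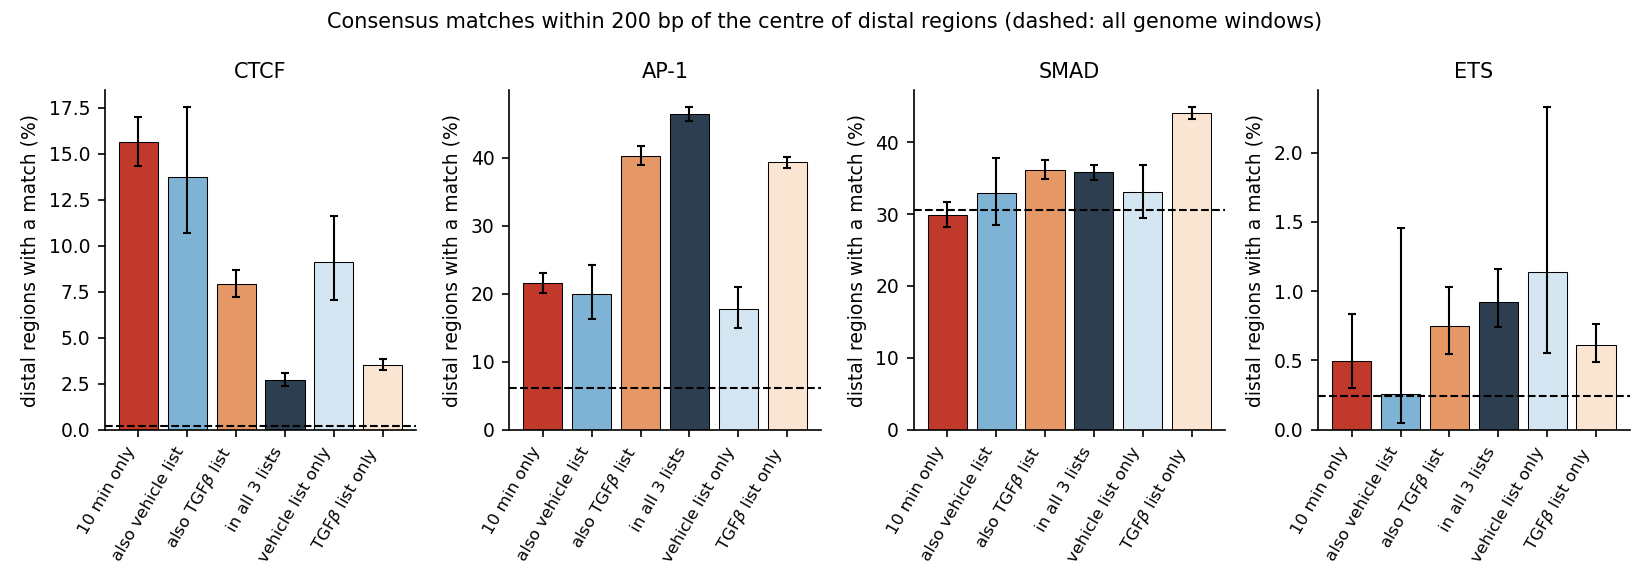
Percentage of distal regions with a consensus match within 200 bp of the centre (y axes), for CTCF, AP-1, SMAD and ETS, in 4 sets of 10 min regions and in the regions of the vehicle or TGFβ list only. Error bars are 95% Wilson intervals and the dashed line is the share over all genome windows of the same length. CTCF is at 15.6% in the 10 min-only regions and at 13.8%, with an overlapping interval, in those shared with the vehicle list alone, AP-1 at 21.5% lies below the 46.4% of regions in all 3 lists, and SMAD at 29.9% lies at the dashed line of 30.6%.

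Because CTCF shares rise in narrow regions, the comparison was repeated at equal width. At 150 to 199 bp, 25.9% (23.0 to 29.0%) of the distal 10 min-only regions and 20.2% (17.4 to 23.4%) of the other distal 10 min regions held a match, a difference of 5.68 points (1.42 to 9.86). At 200 to 299 bp the shares were 16.3% and 10.7%, a difference of 5.62 points (2.83 to 8.64), and at 300 to 399 bp 13.3% and 5.64%, a difference of 7.67 points (4.90 to 10.9). The differences at equal width were thus smaller than the 10.7 points over all widths, and their intervals excluded 0 up to 399 bp. From 400 to 599 bp the shares were 4.29% and 3.23%, and the interval of the difference (−0.510 to 3.29 points) held 0. From 600 bp on, 1 of 146 10 min-only regions held a match.

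At equal score the difference ran from 8.22 to 10.1 points in the 5 bins below the cap, with every interval above 0. At equal GC content it ran from 9.71 to 12.4 points in the 5 bins, again with every interval above 0. Width was not held equal within these bins of score and GC content. In the narrowest regions of the other lists alone, CTCF was less frequent. At 150 to 199 bp it was found in 14.3% (10.3 to 19.5%) of distal regions of the vehicle list only and 8.71% (7.73 to 9.80%) of those of the TGFβ list only. At 300 to 399 bp the vehicle-only share of 6.48% (3.18 to 12.8%) overlapped the 10 min-only interval (10.7 to 16.4%), and wider bins overlapped too. The TGFβ-only share was lower beyond the intervals up to 599 bp.

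**Figure D4:**
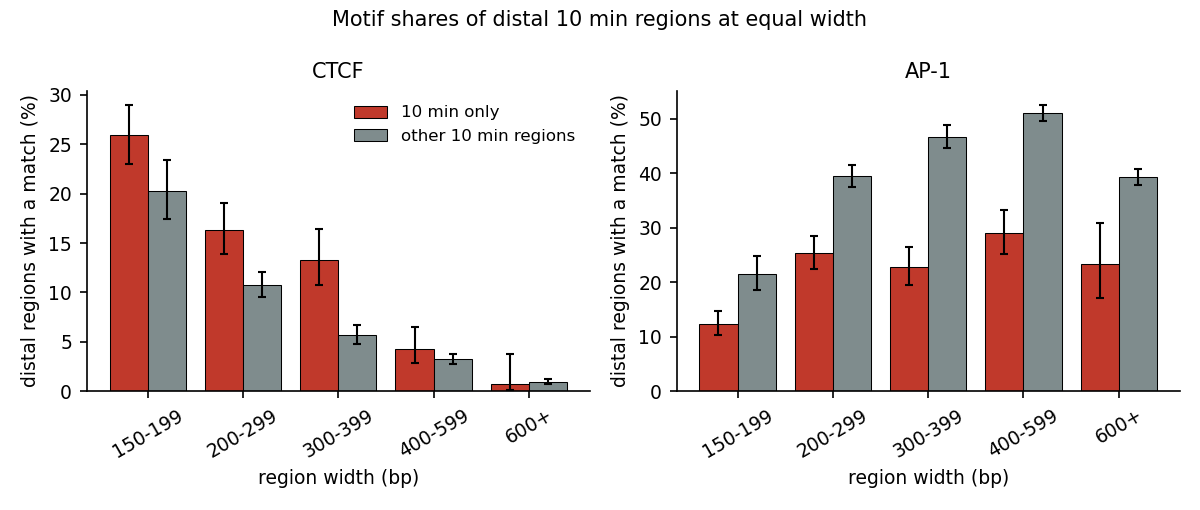
Percentage of distal 10 min regions with a CTCF (left) or AP-1 (right) match within 200 bp of the centre (y axes), by region width in bp, for 10 min-only and other 10 min regions. Error bars are 95% Wilson intervals. CTCF falls with width in both sets, from 25.9% and 20.2% in the narrowest bin, and the 10 min-only share is higher in the 3 narrower bins, while its AP-1 share is lower in every bin.

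The matches lay at the middle of the regions. Of the 438 nearest CTCF matches, 288 (65.8%, 61.2 to 70.0%) had their centre within 25 bp of the region centre, against 44.3% (40.6 to 48.1%) in the other distal 10 min regions, and the median distance was 15.5 bp against 31.5 bp. A smaller group of 73 matches (16.7%) lay 60 to 100 bp away, in regions with a median width of 349 bp, and in the other distal 10 min regions 130 of 677 (19.2%) did, with a median width of 370 bp. AP-1 matches were spread more widely around the centre, with 28.7% (25.2 to 32.4%) within 25 bp, and SMAD matches showed 14.3% there, beside the flat course seen in the plot of match positions. The CTCF regions had a median width of 200.5 bp (196 to 208 bp), compared with 300 bp (283 to 319 bp) for those with an AP-1 match, at median scores of 610.5 and 615. The other distal 10 min regions with a CTCF match were wider, at a median of 264 bp (251 to 294 bp). Distances to the centre were not compared at equal width.

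**Figure D5:**
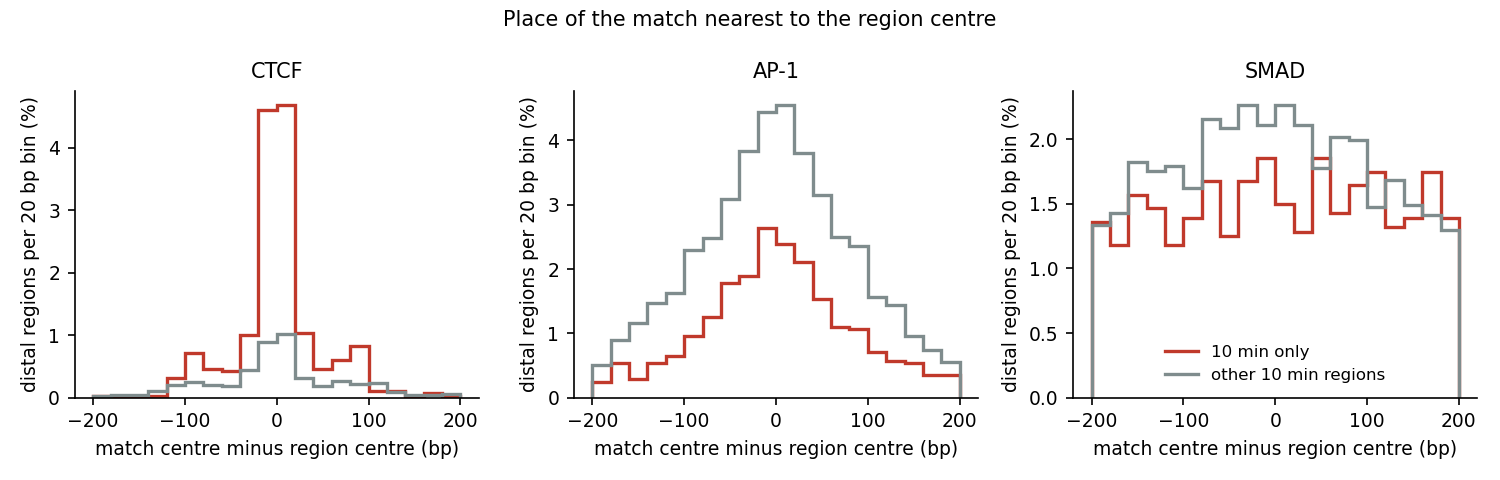
Percentage of distal regions (y axes) by the distance in bp from the region centre to the centre of the nearest CTCF, AP-1 or SMAD match (x axes), in bins of 20 bp, for 10 min-only and other 10 min regions. CTCF matches of the 10 min-only regions pile up at the centre, with 65.8% of them within 25 bp, AP-1 matches form a broad peak and SMAD matches are nearly flat.

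Seen from the genome, 12717 CTCF consensus sites were found on chromosomes 1 to 19 and X, and 477 of them (3.75%) lay wholly inside a 10 min-only region. In the 1.051 Mb covered by these regions this was 453.7 sites per Mb, compared with 68.1 per Mb in the 15.37 Mb of the other 10 min regions, 301 per Mb in the 0.186 Mb of regions of the vehicle list only and 4.98 per Mb over the genome. The density favours narrow regions, which hold little sequence around a site. The most frequent form of the site in the 10 min-only regions, CCACCAGGGGGC, made up 54 of the 477 sites (11.3%), 11.5% of the 1046 sites in other 10 min regions and 6.34% of all sites in the genome. The form most frequent in the genome, CCAGCAGAGGGC at 15.7%, made up 9.64% in the 10 min-only and 11.1% in the other 10 min regions. CCACTAGAGGGC came second in the 10 min-only regions at 10.7%, against 7.84% in the other 10 min regions, and CCACTAGATGGC made up 9.43% against 5.74%.

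AP-1 sites showed the opposite pattern. A match was present in 603 of the 2801 distal 10 min-only regions, or 21.5% (20.1 to 23.1%), compared with 40.3% (39.0 to 41.7%) of those shared with the TGFβ list alone and 46.4% (45.4 to 47.5%) of those in all 3 lists. The share was nonetheless above the 6.20% of all genome windows. The difference from all other distal 10 min regions was −21.9 points (−23.6 to −20.1). It held in every bin of width, from −9.17 points (−13.0 to −5.40) at 150 to 199 bp to −23.9 points (−27.7 to −19.6) at 300 to 399 bp, and in every bin of score and GC content. Of distal 10 min regions with an AP-1 match, 9.23% (8.55 to 9.96%) were 10 min-only, against 22.1% (21.3 to 23.0%) of those without. Regions shared with the vehicle list alone held a match in 77 of 385 (16.3 to 24.3%), and the difference of 1.53 points had an interval that held 0 (−3.00 to 5.54). Those of the vehicle list only were lower still at 17.7% (14.9 to 20.9%), a difference of 3.80 points (0.264 to 7.02), while regions of the TGFβ list only reached 39.3% (38.5 to 40.2%).

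SMAD matches were no more frequent than over the genome. A match was present in 29.9% (28.3 to 31.6%) of the distal 10 min-only regions, beside 30.6% of all genome windows and 33.8% of windows weighted to their GC content. In the other distal 10 min regions the share was 35.9% (35.1 to 36.7%), a difference of −5.95 points (−7.80 to −4.05). At equal width its interval held 0 at 150 to 199 bp (−8.40 to 0.939 points) and excluded 0 in the wider bins. At equal GC content it held 0 from 50% GC on. The difference from regions shared with the vehicle list alone, −3.07 points, also had an interval that held 0 (−8.19 to 1.76). The regions of the TGFβ list only reached 44.1% (43.2 to 44.9%). ETS matches were rare, in 14 of the 2801 regions (0.4998%, 0.298 to 0.837%), and the difference from the other distal 10 min regions, −0.342 points, had an interval that held 0 (−0.605 to 0.0232). The ETS share was 0.246% over all genome windows and 0.4065% over windows weighted to the GC content of the 10 min-only regions.

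Of the other 12 motifs, 3 differed between the distal 10 min-only and other distal 10 min regions beyond the counting interval. TEAD matches (ACATTCC), the sites of the effectors of Hippo signalling, were fewer at 6.39% against 10.2%, a difference of −3.78 points (−4.77 to −2.69), and NF-Y matches (CCAATCA) were fewer at 3.61% against 4.58%, a difference of −0.978 points (−1.70 to −0.149). Grainyhead matches (AACCGGTT), the sites of epithelial regulators such as Grhl2, were more frequent at 0.428% against 0.154%, a difference of 0.275 points (0.0743 to 0.598), though this rests on 12 regions. The intervals of the difference held 0 for CRE, forkhead (GTAAACA), RUNX (TGTGGTTT), NRF1, CLEAR (TCACGTGA), YY1 (AAGATGGC), the glucocorticoid receptor, SRF and NFI, the last 3 searched by their consensus. Against distal regions shared with the TGFβ list alone, the NF-Y interval held 0 (−1.095 to 0.657 points), while those of TEAD and grainyhead excluded it. Against those shared with the vehicle list alone, only TEAD of these 3 had an interval that excluded 0. The 3 motifs were not compared at equal width, score or GC content. No adjustment was made for the number of motifs.

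The CTCF and AP-1 regions were largely separate. Only 27 of the 2801 distal regions (0.964%) held both, 1014 (36.2%) held either, and 2 held more than 1 CTCF match. A SMAD match without AP-1 or CTCF was present in 542 (19.4%). None of AP-1, CTCF, SMAD and ETS was found in 1238 (44.2%, 42.4 to 46.0%), and none of the 16 motifs in 876 (31.3%). Of the CTCF regions 51.8% (47.2 to 56.5%) were intergenic and of the AP-1 regions 53.6% (49.6 to 57.5%), with overlapping intervals.

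The regions were spread over all chromosomes. The share of 10 min regions that was 10 min-only ran from 9.69% on chromosome X (7.59 to 12.3%) to 14.2% on chromosome 19 (12.3 to 16.4%), and the interval missed the overall 12.2% on 1 of the 20 chromosomes. The next 10 min region was a median of 13828 bp away (12912 to 14557 bp), compared with 14474 bp (14139 to 14745 bp) for regions of all 3 lists. The central 50 bases occurred more than once in the genome in 26 regions (0.797%, 0.545 to 1.17%), against 0.776% of the other 10 min regions. No 10 min-only region resembled mitochondrial DNA, whereas 18 of the other 10 min regions did.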

How the data were processed

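The series holds 4 NMuMG samples and 3 peak lists. The authors processed reads with the ENCODE ATAC-seq pipeline, aligned them to mm9, called peaks with MACS2 2.1.2 and filtered them by irreproducible discovery rate, and the deposited lists give intervals, 1 line per summit, with a scaled score from 540 to 1000. A Tn5 offset of the reads is not given for the peak calls in the sources used here. The lists hold no read counts, so no depth was computed from them and no floor is given. The study states read totals of its libraries, which were not used here. All intervals lay inside the chromosomes of NCBIM37 (mm9), whose genome and GENCODE vM1 annotation were used, whereas sequence tables of another build were not.

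Lists were refined at 150 bp and 1000 bp with Python 3.11.15, pandas 2.3.3 and numpy 2.4.6, and at least 1 bp counted as overlap. TSS windows were ± 1000 bp. Position was assigned in the order TSS, coding exon, UTR, non-coding exon, intron. Genes were assigned by the nearest TSS within 100 kb. Both strands were searched for 16 motifs in windows of ± 200 bp around region centres and in tiles of that length over chromosomes 1 to 19 and X. Similarity to mitochondrial DNA was found with blastn 2.17.0. The functions were tested on simulated data.

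The members and lists were chosen with earlier results of these data known. Named were the 10 regions with the highest score, the 5 widest, protein-coding promoters at the cap, the 5 genes with most regions, listed genes with a region at a TSS or at the cap, and the 3 regions on either side of the rule. The 2 highest-scoring distal regions per factor with a match within 50 bp of the centre gave the sequences, of which 1 for AP-1 and 1 for SMAD are not reported here. Other names were chosen after their values were seen, including those of listed genes without a region at a TSS. No fit across features and no p-value was possible. Alternatives covered merging, width, score, overlap, list length, motif window and repeated sequence.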

Additional observations from a re-analysis of the deposited data

How the results depend on the processing

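Of 80 recomputed values for 6 results, 44 stayed inside the 95% counting interval and 36 moved beyond it, and the cause was not tested unless the alternative fixes it. The 12.2% of 10 min regions in neither other list became 13.2% with only touching intervals merged, 11.55% with no minimum width, 19.04% at a minimum of 300 bp, 8.998% above the median score, 11.63% with gaps under 1000 bp shared, 16.1% by region centre, 11.2% against intervals as deposited and 26.75% against a TGFβ list as short as the vehicle list. Among regions at the cap it was 0.138%, and the 11 regions there gave 45.5% at a TSS and, in the 6 distal regions, 0% for AP-1, ETS and CTCF and 16.7% for SMAD.

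The 14.1% at a TSS became 19.9% with touching intervals merged, 26.3% at 300 bp, 39.2% above the median score, 21.7% by centre, 17.1% with the short TGFβ list, 9.96% with a window of 200 bp and 12.7% for protein-coding genes. AP-1 moved to 32.7% at 300 bp, 31.8% above the median score, 28.0% with the short TGFβ list, and 16.4% and 30.6% in windows of 100 and 500 bp. SMAD moved to 31.9% with the short TGFβ list and to 15.2% and 61.5% in these windows, and ETS to 1.28% above the median score and to 0.286% and 1.07% in them. CTCF moved to 7.76% at 300 bp, 9.76% above the median score, 13.9% by centre and 12.7% with the short TGFβ list.

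Relative to the other distal 10 min regions, CTCF stayed higher beyond the interval in 13 of 14 alternatives and AP-1 lower in 14 of 14. The exception for CTCF was the cap, with 6 regions. SMAD stayed lower in 13 of 14, and the ETS difference turned, to 0.149 points (−0.517 to 1.24), above the median score. Its interval, which otherwise held 0, excluded 0 by region centre, at −0.351 points (−0.607 to −0.0158), and around the highest-scoring interval, at −0.386 points (−0.651 to −0.0193). Leaving out regions with repeated central sequence, an alternative chosen after seeing the data, moved none of the 6 values beyond its interval. No paired analysis was possible because both 10 min samples share 1 list and each other sample has 1. Depth, library quality and variation between cultures were not tested.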

Other observations

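The strand of the CTCF consensus was looked at after the other values were seen. Of the 477 sites inside 10 min-only regions, 275 read along the plus strand of the genome (57.7%, 53.2 to 62.0%). In the other 10 min regions it was 488 of 1046 (46.7%, 43.7 to 49.7%), in the regions of the TGFβ list only 48.7% (44.3 to 53.1%) and over the genome 49.2% (48.3 to 50.03%). All 10 min regions together gave 50.1% (47.6 to 52.6%). No cause was tested.

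Promoter regions in the 10 min list only also differed in sequence from promoter regions in all 3 lists. Of the 461 regions at a TSS, ETS matches were present in 4.56% (2.998 to 6.86%), against 9.27% (8.67 to 9.91%) of TSS regions in all 3 lists, NRF1 matches in 3.25% (1.98 to 5.30%) against 5.68% (5.20 to 6.19%), and NF-Y matches in 3.905% (2.48 to 6.09%) against 10.8% (10.1 to 11.5%). SMAD matches were more frequent, in 26.2% (22.4 to 30.4%) against 18.6% (17.8 to 19.4%), and AP-1 shares had overlapping intervals, 7.81% (5.69 to 10.6%) and 6.15% (5.66 to 6.68%). The SMAD share was not above the 30.6% of all genome windows or the 28.9% of windows weighted to the GC content of these regions. TSS regions of the vehicle list only held SMAD in 27.8% and those of the TGFβ list only in 37.4%. TSS regions shared with the TGFβ list alone held ETS in 5.62%, NRF1 in 3.88%, NF-Y in 4.99% and SMAD in 22.7%. The intervals of these differences from the 10 min-only regions held 0, as did those against regions shared with the vehicle list alone. For AP-1 the interval against the TGFβ list alone, −7.65 to −1.49 points, excluded 0. The differences in GC content and width between these sets were not taken into account.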
